A study of Sus scrofa with 207 samples.

Results

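Fat area is the cross-section of the fat layer that lies over the longissimus muscle of the back, and it differed widely between 207 slaughter pigs whose muscle RNA was profiled, 1 array per animal. The comparison described here sets the 2 ends of that range against each other. Animals with a fat area of at most 11.5 cm2 formed the small group (22 animals, 8.1 to 11.5 cm2, mean 10.5 ± 0.887 SD), and animals with at least 19 cm2 formed the large group (24 animals, 19 to 26.7 cm2, mean 20.7 ± 1.89 SD). Together they are 46 of the 207 animals. A further 42 animals at 14 to 15.5 cm2 (mean 14.7 ± 0.489 SD) are shown beside them as a middle group. The limits do not sit in a gap of the trait: 3 animals had 11.6 cm2, just outside the small group, and 2 had 18.9 cm2, just below the large group. For 8 animals no fat area was recorded, and they entered no comparison.

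All animals came from commercial crossbred pigs labelled Pix(DLxDE), were untreated as far as the labels say, and gave muscle when they were slaughtered at a common mean end weight. Total RNA was hybridised to the Affymetrix porcine array, and the deposited values are taken as log2 signals from their range. The labels give drip loss (water lost from the meat on storage) as a second trait, but no age at slaughter, sex, sire, slaughter day or array batch. The arrays measured whole muscle, so fewer cells of a type and less RNA per cell cannot be told apart in any value below.

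As background, a pig that lays down more fat converts more glucose and acetate into fatty acids, and in this species most of that synthesis happens in fat tissue rather than in muscle or liver. Fatty acids reach muscle fibres across the capillary wall, are carried by binding proteins, and enter the mitochondria through the carnitine shuttle, whose gatekeeper is carnitine palmitoyltransferase 1. Fat cells lying between the fibres add their own transcripts to a muscle sample, among them the carrier FABP4 and the hormones adiponectin and leptin. Males carry a Y chromosome, whose few broadly active genes, such as the translation factor gene EIF1AY, have near copies on the X.

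The arrays carried 23935 probe sets other than controls, of which 10069 name a single gene in the platform's annotation and 13668 name none. Muscle fibre genes were among the brightest signals in both groups, with fast myosin heavy chain MYH2 between 13.99 and 14.24 and slow myosin heavy chain MYH7 between 13.63 and 14.00 log2 units over the 46 animals. Array medians ran from 5.96 to 6.18 over all 207 arrays, and 1.43% of all values lay at the floor of 4. Of 24 arrays whose correlation with the others was low, 2 were of the small and 1 of the large group. Drip loss was 6.02 ± 2.22% (SD) in the small and 5.51 ± 2.11% (SD) in the large group, and the difference did not pass (two-sided permutation test with 100000 resamples, p = 0.421, adjusted over 6 features p = 0.632). The other 5 features tested the same way (array median, correlation with the other arrays, 3' minus 5' control signal, first principal component and the mean of the adipocyte markers) had p between 0.104 and 0.893, each over 22 and 24 animals.

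The groups were uneven in a Y-linked transcript, EIF1AY, which is given first. EIF1AY fell into separate ranges across the 207 arrays, with 98 animals at or below 4.66, all others at or above 6.57 log2 units and none between. In the small group it ran from 4.00 through a median of 4.17 to 7.81, in the middle group from 4.00 through 5.74 to 8.4, and in the large group from 4.33 through 7.76 to 8.44. Only 6 of 22 small-area animals (27.3%) lay above the gap, against 21 of 42 middle animals (50%) and 22 of 24 large-area animals (91.7%). The ranges of the groups overlapped, while the share of animals in the upper range was lowest in the small and highest in the large group. Over all animals with a recorded fat area, the 92 below the gap had a mean of 13.6 ± 2.78 cm2 (SD) and the others 16.1 ± 3.01 cm2 (SD). The animal with the largest fat area of all, at 26.7 cm2, lay below the gap. The labels give no sex, so the classes are named by EIF1AY alone. The probe set of SRY, the sex-determining gene of the Y, stayed low in every group (4.2 to 5.61 over the 46 animals) and was unrelated to EIF1AY over the 207 arrays (r = 0.042, a description over single arrays), so it gave no second reading of the same property.

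**Figure D1:**
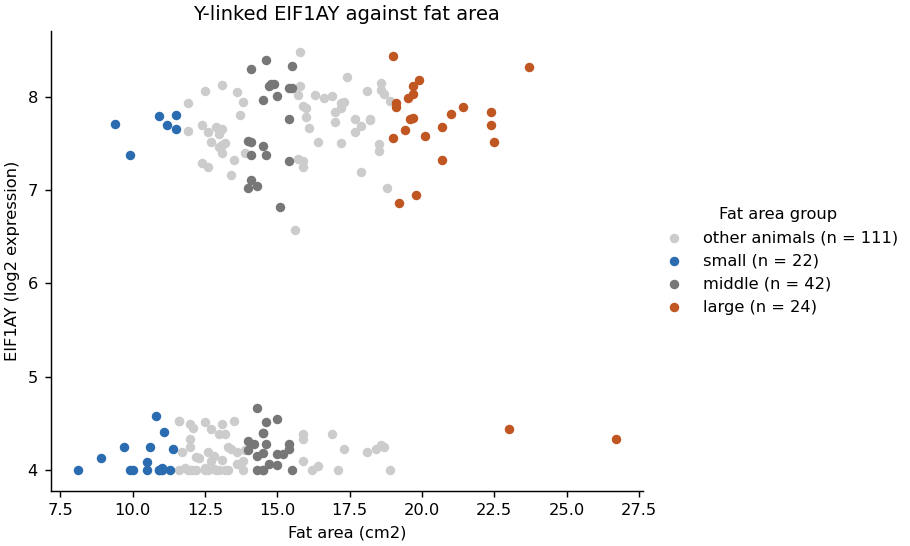
EIF1AY signal (log2, vertical axis) against fat area (cm2, horizontal axis), 1 point per animal with a recorded fat area, coloured by group. No animal lies between 4.66 and 6.57; 6 of 22 small-area and 22 of 24 large-area animals lie in the upper band.

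Across the whole array, 11 of 23935 probe sets (0.046%) differed between the large and the small group at an adjusted p under 0.05 (limma with Benjamini-Hochberg adjustment), 5 higher (0.0209%) and 6 lower (0.0251%) in large-area animals. Of the 11, 9 are not placed on X or Y (0.0382% of such probe sets), and with 1 probe set per gene the named ones are EIF1AY and NIT1 (2 of 6765 genes, 0.0296%). For 7 of the 11, the animals above and below the EIF1AY gap did not overlap on any of the 207 arrays, and these 7 are all the probe sets on the array with that property (0.0292%). EIF1AY is among them by construction, because the classes were cut in its own values. EIF1AY itself was 2.39 ± 0.452 (SE) log2 units higher in the large group (adjusted p = 0.0064). Its companions Ssc.7473.1.A1_at, which carries no gene name, and Ssc.16426.1.S1_at, whose annotation names several genes on X and Y, were 3.09 ± 0.609 and 3.14 ± 0.628 higher. The remaining 4 were lower, with differences of -3.79 ± 0.725 for Ssc.31029.1.A1_at, -2.12 ± 0.389 for Ssc.6667.1.A1_at, -1.69 ± 0.342 for Ssc.13426.1.A1_at and -0.93 ± 0.182 for Ssc.4897.1.A1_at. None of those 4 has a gene name in the annotation used. An eighth, Ssc.2434.1.A1_at, had -0.97 ± 0.182 and almost separated the classes, at 4.75 to 6.62 below the gap and 4.00 to 4.99 above it.

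The same difference was read within the EIF1AY classes for Ssc.31029.1.A1_at. In animals below the gap its mean was 10.35 ± 0.49 (SD, n = 16) in the small and 10.45 ± 0.14 (SD, n = 2) in the large group, and above the gap 4.47 ± 0.31 (SD, n = 6) and 4.45 ± 0.24 (SD, n = 22). Within each class the groups thus lay within 0.1 log2 units of each other, against a difference of -3.79 over both classes together. With the EIF1AY class added to the fit, the difference was -0.15 ± 0.130 for this probe set and 0.15 ± 0.109 for EIF1AY. Over the 7 probe sets, EIF1AY among them, the median of that difference, as a share of the value without the class, was 0.040.

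X-linked genes with counterparts on the Y gave mostly smaller values in the large group, none of which passed. KDM6A, an X-linked histone demethylase, ran from 6.19 through 7.09 to 7.47 in the small and from 5.83 through 6.49 to 7.47 in the large group, and 1 of 24 large-area animals exceeded the small group's median. Its difference was -0.45 ± 0.116 (limma, adjusted p = 0.187), and TXLNG, another X-linked gene, had -0.33 ± 0.088 (adjusted p = 0.215). Neither passed, and with the EIF1AY class in the fit the differences were -0.026 ± 0.092 and -0.029 ± 0.073. USP9X, a deubiquitinase, and EIF1AX, the X copy of EIF1AY, had -0.34 ± 0.092 and -0.27 ± 0.112, while KDM5C and ZFX had 0.050 ± 0.065 and 0.039 ± 0.053. Of the probe sets placed on X or Y, 2 were called (0.559%, EIF1AY and Ssc.16426.1.S1_at) and 46 (12.8%) had an unadjusted p under 0.05, 28 of them lower and 18 higher in the large group. The share over the whole array was 7.05% (1688 probe sets). With the class in the fit, 15 of the X and Y probe sets had an unadjusted p under 0.05.

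The 3 called probe sets that neither separated nor nearly separated the EIF1AY classes were NIT1, Ssc.2217.2.S1_at and Ssc.4921.1.S1_a_at. NIT1, on chromosome 4, encodes an amidase that clears a damaged form of glutathione. It ran from 8.84 through 9.24 to 9.70 in the small, from 8.69 through 9.38 to 9.87 in the middle and from 9.25 through 9.59 to 10.05 in the large group. All 24 large-area animals lay above the small group's median, while 4 of 22 small-area animals lay at or above the large group's median, so the ranges overlapped in part. The means were 9.25 ± 0.26, 9.37 ± 0.24 and 9.60 ± 0.23 (SD), and the large group was 0.35 ± 0.071 (SE) log2 units higher than the small, or 1.27-fold (limma, adjusted p = 0.0088). The middle group stood 0.12 above the small group and 0.23 below the large. A second, dimmer NIT1 probe set was 0.22 ± 0.067 higher and did not pass (adjusted p = 0.356).

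NIT1 was also read within the EIF1AY classes. Above the gap the difference was 0.26 ± 0.107 over 22 large-area and 6 small-area animals, and below it 0.22 ± 0.183 over 2 and 16. With the class in the fit it was 0.28 ± 0.079, but no probe set of the array passed in that fit: NIT1 had an unadjusted p of 7.4e-04 and an adjusted p of 0.889, and 1284 probe sets (5.36%) had an unadjusted p under 0.05. Blocks of 100 animal numbers from the sample titles, the only trace of an order in the labels, were also uneven. One block held 2 small-area and 7 large-area animals, and 2 other blocks each held 4 small-area and 0 large-area animals. With these blocks in the fit NIT1 was 0.30 ± 0.073 higher and no longer passed (adjusted p = 0.0796). The part of the blocks in the group difference was not tested otherwise.

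Ssc.2217.2.S1_at, which has no gene name here, ran from 9.45 through 9.82 to 10.48 in the small and from 9.75 through 10.20 to 10.61 in the large group, with 21 of 24 large-area animals above the small group's median. It was 0.38 ± 0.077 higher in the large group (limma, adjusted p = 0.0095) and 0.35 ± 0.088 higher with the EIF1AY class in the fit. Its middle group lay closer to the large end, 0.25 above the small and 0.13 below the large group. Ssc.4921.1.S1_a_at, also without a name, ran from 6.14 through 6.53 to 7.44 in the small and from 5.74 through 6.12 to 6.65 in the large group. Its difference was -0.40 ± 0.079 (limma, adjusted p = 0.0081) and -0.33 ± 0.089 with the class. No small-area animal was below the large group's median, and the middle group was again nearer the large end, at -0.29 from the small and 0.10 from the large group.

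**Figure D2:**
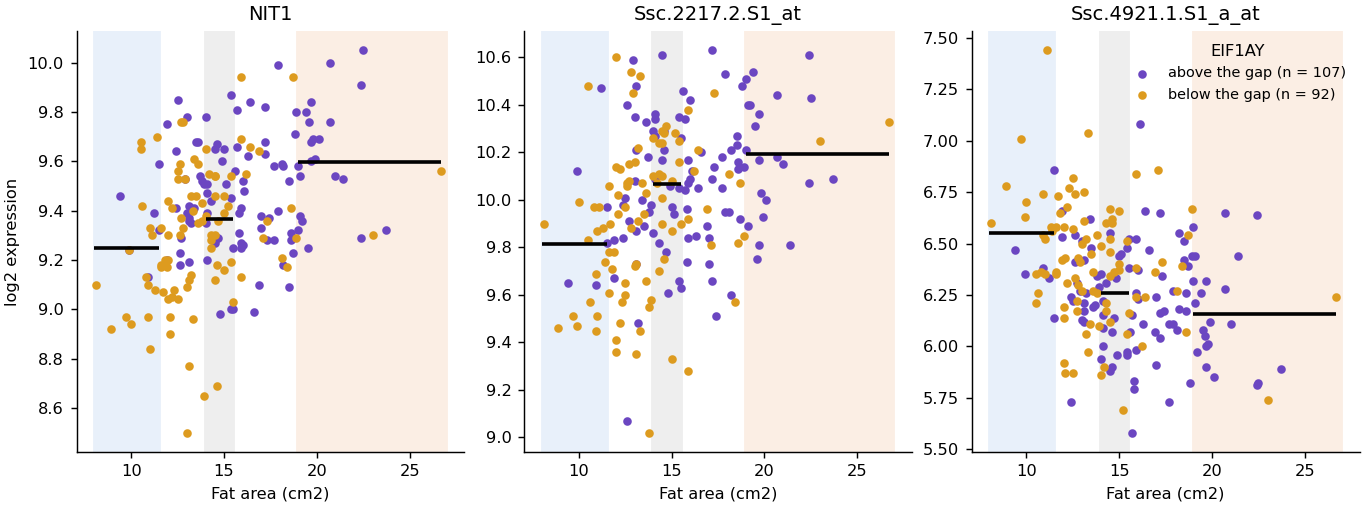
Log2 expression (vertical axes) of NIT1 and of 2 unnamed probe sets against fat area (cm2, horizontal axes), 1 point per animal, coloured by EIF1AY class. Shaded bands mark the small, middle and large groups and horizontal bars their means; for NIT1 the bars stand at 9.25, 9.37 and 9.60.

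Genes near NIT1 on chromosome 4, chosen after the values were seen, had smaller differences. Of the 6 measured, 0 passed and 0 had an unadjusted p under 0.05: USP21, a ubiquitin protease, had 0.15 ± 0.080, DEDD, a death-effector domain protein, 0.078 ± 0.071, UFC1, a conjugating enzyme of the ubiquitin-like UFM1 system, 0.050 ± 0.075, B4GALT3, a galactosyltransferase, 0.032 ± 0.068, KLHDC9 0.0050 ± 0.068 and PPOX, an enzyme of haem synthesis, -0.090 ± 0.070 log2 units.

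Beyond NIT1, the named autosomal genes with the largest moderated t in each direction gave small differences that did not pass. The 12 probe sets on the higher side had adjusted p from 0.0088 to 0.356 and only NIT1 passed, and the 12 on the lower side had adjusted p from 0.140 to 0.356. PECAM1, an adhesion protein of endothelial junctions, ran from 8.81 through 9.37 to 10.03 in the small and from 8.72 through 9.06 to 9.36 in the large group, so that 0 of 24 large-area animals reached the small group's median. Its difference was -0.33 ± 0.085 (limma, adjusted p = 0.177), and -0.24 ± 0.095 with the EIF1AY class in the fit. Above the EIF1AY gap PECAM1 ran from 8.81 through 9.175 to 9.62 in 6 small-area animals. In the 22 large-area animals above the gap it ran from 8.72 through 9.085 to 9.36. CDH5, the cadherin of the same junctions, ran from 8.75 through 9.15 to 9.89 against 8.26 through 8.93 to 9.43, a difference of -0.31 ± 0.086 (adjusted p = 0.299). COL4A2, a chain of basement membrane collagen, ran from 9.72 through 10.23 to 10.91 against 9.67 through 9.99 to 10.43 and had -0.28 ± 0.081 (adjusted p = 0.348). CAV1, the coat protein of caveolae, had -0.24 ± 0.072 (adjusted p = 0.356). With the class in the fit the differences were -0.22 ± 0.096 for CDH5, -0.20 ± 0.090 for COL4A2 and -0.20 ± 0.082 for CAV1. The groups overlapped in all of these genes, with the highest small-area animals above every large-area one. Dimmer probe sets had -0.23 ± 0.079 for PECAM1, -0.17 ± 0.102 for CDH5, and -0.26 ± 0.123 and -0.16 ± 0.087 for CAV1.

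RALB, a small GTPase of vesicle traffic, had the largest moderated t on the lower side. It ran from 7.02 through 7.75 to 8.32 in the small and from 6.95 through 7.43 to 7.99 in the large group, with 1 of 24 large-area animals above the small group's median, and its difference was -0.33 ± 0.080 (limma, adjusted p = 0.140). TBC1D1, which restrains the movement of glucose transporters to the surface of muscle fibres, had -0.45 ± 0.127 (adjusted p = 0.303), from 6.43 through 7.18 to 8.86 in the small and from 4.91 through 6.79 to 7.34 in the large group, while its other, dimmer probe sets had -0.085 ± 0.058 and -0.12 ± 0.087. FABP5, a fatty acid carrier found in endothelium and fat, had -0.23 ± 0.068 and -0.27 ± 0.079 at its probe sets. LXN, a carboxypeptidase inhibitor, had -0.53 ± 0.148, and -0.36 ± 0.108 at a dimmer probe set. The remaining 3 were C4H1orf54 (-0.38 ± 0.105), SP140, a nuclear body protein of leukocytes (-0.27 ± 0.079), and the kinase anchor AKAP2 (-0.26 ± 0.078). A dimmer AKAP2 probe set had -0.16 ± 0.088.

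On the higher side the genes had mixed roles and changes of at most 0.42 log2 units. UBE2E3, a ubiquitin-conjugating enzyme, had 0.42 ± 0.116 and 0.33 ± 0.099 at the probe sets among the 12. Its brightest probe set had 0.25 ± 0.092 (limma, adjusted p = 0.550). PKM, the pyruvate kinase of glycolysis, ran from 8.86 through 9.19 to 9.44 in the small and from 8.86 through 9.38 to 9.61 in the large group, a difference of 0.19 ± 0.051 (limma, adjusted p = 0.286), while a dimmer PKM probe set had 0.050 ± 0.088. FLOT1, a scaffold of membrane rafts, had 0.21 ± 0.054 at one probe set and 0.20 ± 0.110 at another. The zinc finger factor MAZ (0.25 ± 0.070), the mitotic kinase NEK6 (0.23 ± 0.070) and the mitochondrial ribosomal protein MRPS26 (0.22 ± 0.068) followed. The helicase partner WRNIP1 (0.18 ± 0.046), the elongation factor subunit EEF1D (0.17 ± 0.049), RETREG2 of the endoplasmic reticulum (0.17 ± 0.049) and RANGAP1 of nuclear transport (0.14 ± 0.043) completed the 12. MAZ and NEK6 each had another probe set near 0, at -0.0090 ± 0.068 or 0.022 ± 0.067 for MAZ and 0.0092 ± 0.065 for NEK6, and a brighter probe set of RETREG2 had 0.071 ± 0.056.

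**Figure D3:**
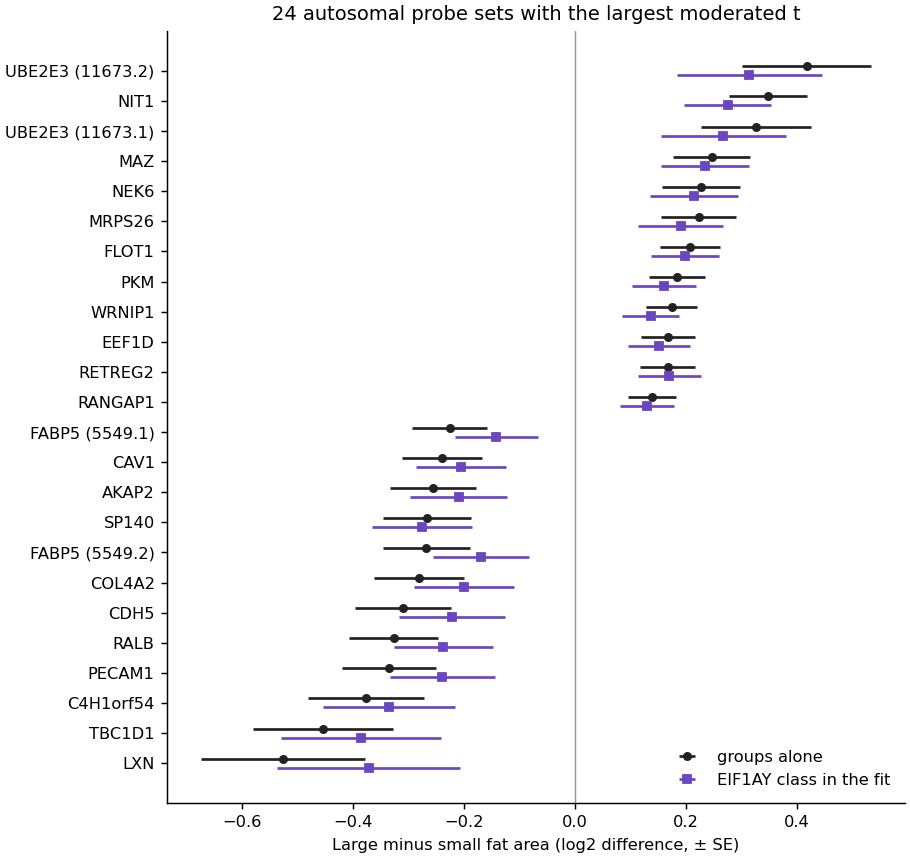
Large minus small difference (log2, horizontal axis, bars ± SE) of the 12 named autosomal probe sets with the largest moderated t in each direction, from the groups alone (circles) and with the EIF1AY class in the fit (squares). All 24 keep their sign with the class, and the lower ones shrink more: the median ratio is 0.885 for the higher and 0.720 for the lower 12. The 24 were chosen for the difference from the groups alone in these same animals, which makes a kept sign likely from the start.

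The sign of these differences was then read in the animals of neither group, 42 of which are the middle group and so entered the fit's estimate of the spread. In the 153 animals between 11.5 and 19 cm2, the slope on fat area had the same sign as the group difference for 11 of the 12 higher and 11 of the 12 lower probe sets, and for 8 and 9 once the EIF1AY class was in the fit. How often the signs match over the whole array was not counted, so these counts have no share to stand beside. Slopes were small: NIT1 had 0.026 ± 0.010 log2 units per cm2 (unadjusted p = 0.0112) and 0.017 ± 0.011 with the class, PECAM1 -0.016 ± 0.012 and RALB -0.012 ± 0.011. Over the array 0 of 23935 slopes passed and 986 (4.12%) had an unadjusted p under 0.05, so the animals in between gave no call of their own.

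Genes of fat cells gave small differences, and none passed. FABP4 ran from 9.18 through 10.76 to 11.93 in the small, from 9.68 through 10.84 to 11.47 in the middle and from 10.07 through 10.69 to 11.33 in the large group, a difference of -0.053 ± 0.143 (limma, adjusted p = 0.971). Adiponectin, ADIPOQ, ran from 4.46 through 5.48 to 7.08 against 4.01 through 5.61 to 6.32 and had 0.087 ± 0.146, and leptin, LEP, had -0.017 ± 0.059. LPL, which releases fatty acids from blood lipoproteins, had -0.090 ± 0.151 and PPARG, the master regulator of fat cells, 0.047 ± 0.064. Of the 9 adipocyte markers measured, of 14 listed, 0 had an unadjusted p under 0.05, against 502 of all 6765 genes (7.42%). Over only 9 genes a count of 0 cannot be told apart from that share. The markers had a mean per animal from 6.68 to 7.78 in the small and from 6.86 to 7.48 in the large group. Their median difference was 0.031, and -0.050 with the EIF1AY class in the fit, beside -0.0031 over all genes.

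Enzymes that build fatty acids and triglycerides had mostly positive differences that did not pass. FASN, the fatty acid synthase, ran from 7.24 through 8.64 to 10.73 in the small, from 6.50 through 8.90 to 10.68 in the middle and from 8.23 through 9.0 to 10.84 in the large group. SCD, which desaturates stearic acid, ran from 6.47 through 9.26 to 11.39, from 5.58 through 9.28 to 11.86 and from 8.22 through 9.74 to 11.05. The large group lacked the low values seen in the other groups, and 19 of its 24 animals exceeded the small group's median for each gene. The differences were 0.37 ± 0.241 for FASN (limma, adjusted p = 0.787) and 0.50 ± 0.348 for SCD (adjusted p = 0.808). With the EIF1AY class in the fit they were 0.24 ± 0.272 and 0.46 ± 0.396. Above the gap FASN had means of 9.19 in 6 small-area and 9.12 in 22 large-area animals, and SCD 9.345 and 9.69. ME1, the malic enzyme that supplies NADPH, had 0.20 ± 0.083 (adjusted p = 0.609), and FADS1, a desaturase of long fatty acids, 0.15 ± 0.066 (adjusted p = 0.643). ACACA had 0.042 ± 0.131 and the regulator SREBF1 0.048 ± 0.054. Of 16 measured genes of the list (20 listed), 12 were positive and 3 had an unadjusted p under 0.05 on the higher side, against 3.93% of all genes, with a median of 0.10. The median was 0.047 when all probe sets of a gene were averaged and 0.059 with wider limits of 12 and 18.5 cm2. It was 0.095 with the EIF1AY class in the fit and -0.026 among animals above its gap alone. With the class 2 genes had an unadjusted p under 0.05 on the higher side, against 2.51% of all genes. On the lower side 1 did, against 2.75%: ACSL1, an enzyme that activates fatty acids. In the animals between the groups 8 of the 16 slopes were positive.

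Genes that hold, release and burn fatty acids had mostly negative differences, and none passed. CPT1A, the carnitine palmitoyltransferase of liver and other tissues, ran from 6.76 through 7.72 to 8.17 in the small, from 6.43 through 7.57 to 8.24 in the middle and from 6.57 through 7.24 to 8.42 in the large group, and 4 of 24 large-area animals exceeded the small group's median. Its difference of -0.30 ± 0.120 did not pass (limma, unadjusted p = 0.0138, adjusted p = 0.595). In the 153 animals between the groups CPT1A had a slope of -0.057 ± 0.017 per cm2 (unadjusted p = 8.0e-04), which also did not pass over the array. By EIF1AY class it was -0.53 ± 0.188 above the gap, over 22 and 6 animals, and 0.14 ± 0.287 below it, over 2 and 16. The muscle form CPT1B had -0.14 ± 0.102, and DECR1, an enzyme for unsaturated fatty acids, -0.21 ± 0.097. Over the 23 measured genes of the carnitine shuttle and fatty acid oxidation, 15 were negative, against 3488 of all 6765 genes. Of these 23, 2 had an unadjusted p under 0.05, both lower, against 3.49% of all genes. The median of -0.018 was close to that of all genes. Of 9 genes of lipolysis and the lipid droplet 7 were negative and 3 (FABP5, CAV1 and MGLL, a lipase of monoglycerides) had an unadjusted p under 0.05 on the lower side, against 3.49% of all genes, with a median of -0.10. With the EIF1AY class 1 of the 9 did so, against 2.75%. MGLL had -0.25 ± 0.106 and FABP3, the fatty acid carrier of muscle, -0.16 ± 0.109. The positive members of the lipolysis list were LIPE (0.13 ± 0.135) and ABHD5 (0.077 ± 0.111), and PNPLA2 had -0.10 ± 0.093.

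Most genes of the fasting response had negative differences that did not pass. ANGPTL4, a secreted inhibitor of lipoprotein lipase, ran from 6.19 through 7.29 to 8.17 in the small and from 5.43 through 6.82 to 7.98 in the large group, a difference of -0.43 ± 0.197 (limma, adjusted p = 0.674). TXNIP, which limits glucose uptake, had -0.26 ± 0.128 (adjusted p = 0.704). PDK4, the kinase that turns off pyruvate dehydrogenase, ran from 9.98 through 12.19 to 12.72 in the small and from 9.71 through 11.83 to 12.68 in the large group, with a tail of low animals in both, and had -0.37 ± 0.268. UCP3, a mitochondrial carrier induced by fasting, had -0.28 ± 0.287, and PPARGC1A, the coactivator of mitochondrial genes, -0.63 ± 0.347. Of 8 measured members 7 were negative and 2 had an unadjusted p under 0.05 on the lower side, against 3.49% of all genes, with a median of -0.27 and of -0.34 with the EIF1AY class. Narrower limits of 10.6 and 20 cm2 gave a median of -0.063.

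**Figure D4:**
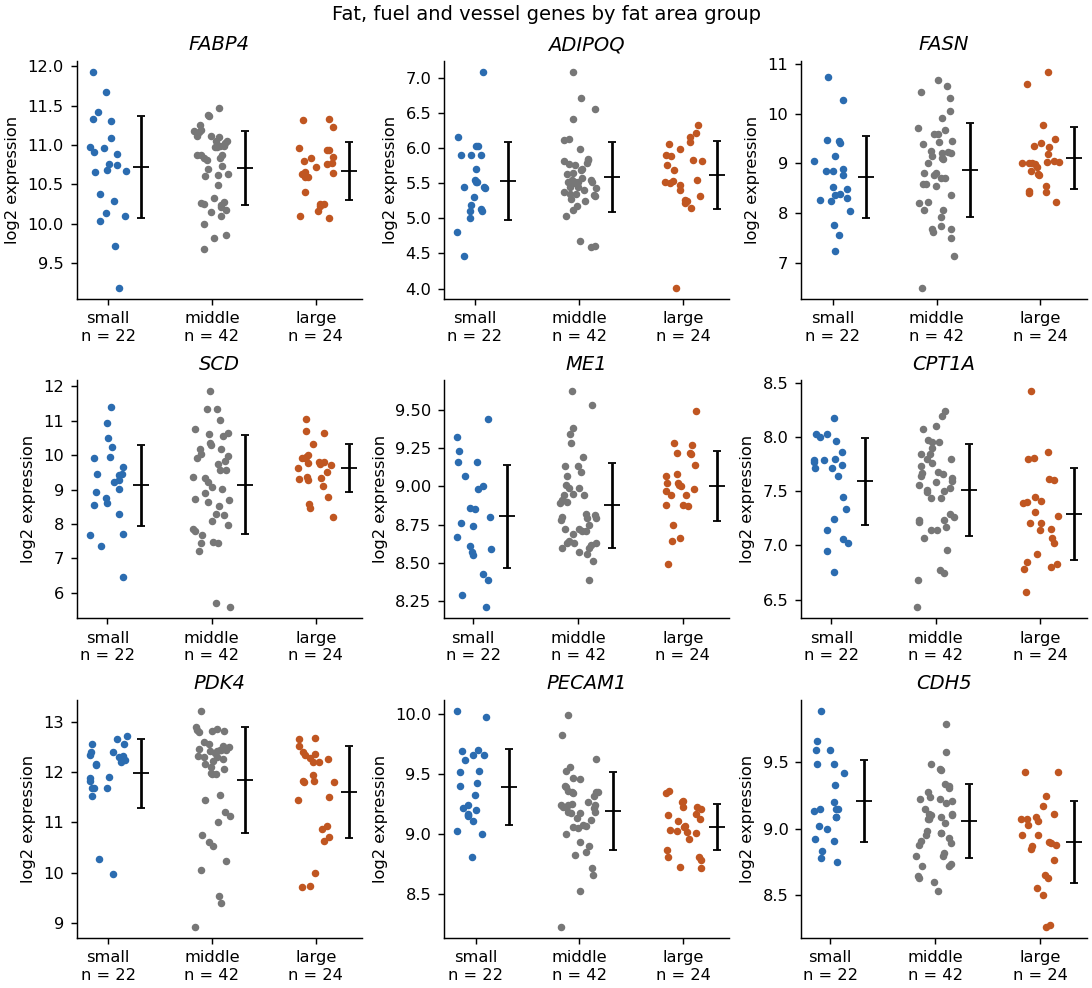
Log2 expression (vertical axes) of 9 genes of fat cells, fatty acid synthesis, fuel use and vessels in the small (n = 22), middle (n = 42) and large (n = 24) fat area groups; points are animals, and the bar beside each group is its mean ± SD. PECAM1 has means of 9.39 in the small and 9.06 in the large group, with no large-area animal above 9.36, FASN and SCD lack low values in the large group, and FABP4 has means of 10.72, 10.70 and 10.67.

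Endothelial markers had mostly negative differences, and none passed. Of 12 measured, 10 were negative, against 3488 of all 6765 genes. On the lower side 5 had an unadjusted p under 0.05, against 3.49% of all genes: PECAM1, CDH5, JAM3, TEK and CLDN5. JAM3, a junction adhesion protein, had -0.19 ± 0.066 (limma, adjusted p = 0.488), TEK, the receptor for angiopoietins, -0.14 ± 0.067, and CLDN5, the tight junction claudin of vessels, -0.27 ± 0.128. VWF, the clotting protein of the same cells, had 0.044 ± 0.104 and FLT1, a receptor for VEGF, 0.034 ± 0.138, so the list did not move as one. Its median was -0.13, and -0.11 with the EIF1AY class in the fit, beside -0.0031 and -0.0039 over all genes. The mean of the markers per animal ran from 7.27 through 7.47 to 7.77 in the small and from 7.19 through 7.32 to 7.77 in the large group, which overlap over nearly their whole range. The median was -0.055 when all probe sets of a gene were averaged. With the class, 2 of the 12 had an unadjusted p under 0.05 on the lower side, against 2.75% of all genes. In the animals between the groups 1 of the 12 slopes was positive, beside 2895 of all 6765.

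Matrix genes had mostly negative differences as well. Of 25 measured collagens and other matrix genes 23 were negative and 3 had an unadjusted p under 0.05, all lower, against 3.49% of all genes, with a median of -0.081 that was -0.038 with the EIF1AY class and 0.019 with the narrower limits. NID2, a linker of basement membranes, had -0.25 ± 0.10 and BGN, a proteoglycan of collagen fibrils, -0.25 ± 0.127. Of 8 fibroblast markers 0 had an unadjusted p under 0.05, against 7.42% of all genes. Their median was -0.046, which was 0.019 with the title blocks and 0.11 with the narrower limits. Among smooth muscle and pericyte markers the list was split, with 3 positive and 4 negative and a median of -0.016 (5 of 7 positive and a median of 0.050 with the EIF1AY class), but RGS5, a marker of pericytes, had -0.25 ± 0.089 (limma, adjusted p = 0.526).

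Genes of protein synthesis and folding had mostly positive differences that did not pass. Of 58 cytosolic ribosomal protein genes 56 were positive, against 48.4% of all genes, and 12 had an unadjusted p under 0.05, all higher, against 3.93%. The median was 0.072, and 0.019 after quantile normalization of the arrays. With the EIF1AY class in the fit 4 did so, against 2.51%, and the median was 0.046. Among animals above the gap alone the median was 0.013, beside -0.013 over all genes. RPS16 and RPL29 had 0.12 ± 0.039 and 0.12 ± 0.040. The ribosomal difference lay between the small and the middle group (median 0.080) rather than between the middle and the large (-0.0026), and 27 of the 58 slopes were positive in the animals between. Of 17 heat shock chaperones 13 were positive and 4 had an unadjusted p under 0.05, all higher, against 3.93% of all genes, with a median of 0.11 that was 0.062 with the title blocks. With the class 2 did so, against 2.51%. HSPB1, the small heat shock protein of muscle, ran from 12.00 through 12.56 to 13.24 in the small and from 12.24 through 13.01 to 13.40 in the large group, a difference of 0.32 ± 0.109 (limma, adjusted p = 0.508). CRYAB, its partner in the sarcomere, had 0.19 ± 0.077 (adjusted p = 0.597). Here the median lay between the middle and the large group (0.11), with -0.0077 between the small and the middle.

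Genes of fibre type and energy metabolism gave small differences, and none passed. MYH7 had 0.011 ± 0.029 and MYH2 -0.0094 ± 0.022. Of 9 slow and 9 fast contractile genes 0 had an unadjusted p under 0.05, against 7.42% of all genes. Of 33 subunits of respiratory complex I, 21 genes of complexes III to V and 21 genes of the TCA cycle, 0 had an unadjusted p under 0.05, and their medians were -0.0018, 0.021 and -0.021. Among 18 genes of glycolysis and glycogen 15 were positive, against 48.4% of all genes, with a median of 0.033. PKM alone of the 18 had an unadjusted p under 0.05, against 7.42% of all genes. PRKAG3, the regulatory AMP kinase subunit known for glycogen content of pig muscle, had 0.099 ± 0.076. IGF2, a growth factor linked to lean growth in pigs, had -0.080 ± 0.127, IGF1 -0.093 ± 0.070, and MSTN, the inhibitor of muscle growth, 0.11 ± 0.106 (limma, adjusted p from 0.828 to 0.940 for these 4).

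Immune lists depended on which animals and covariates were used. Interferon response genes were negative in 15 of 17, against 3488 of all 6765 genes, with a median of -0.14. On the lower side 1 had an unadjusted p under 0.05, against 3.49% of all genes: IFIT3, an antiviral protein, at -0.43 ± 0.204. The median was -0.31 with the EIF1AY class, -0.027 with the title blocks and 0.17 with the narrower limits, so no direction is given for the list. With the class 5 of the 17 had an unadjusted p under 0.05, all lower, against 2.75% of all genes. It also did not run evenly along fat area: the middle group had a median of -0.26 against the small group, and the large group 0.13 against the middle. Macrophage markers had a median of -0.086 that was 0.30 with the narrower limits and 0.055 without the low-correlation arrays. Lymphocyte and blood cell markers had medians of 0.018 and 0.0087, and 1 of these 17 genes had an unadjusted p under 0.05, against 7.42% of all genes.

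**Figure D5:**
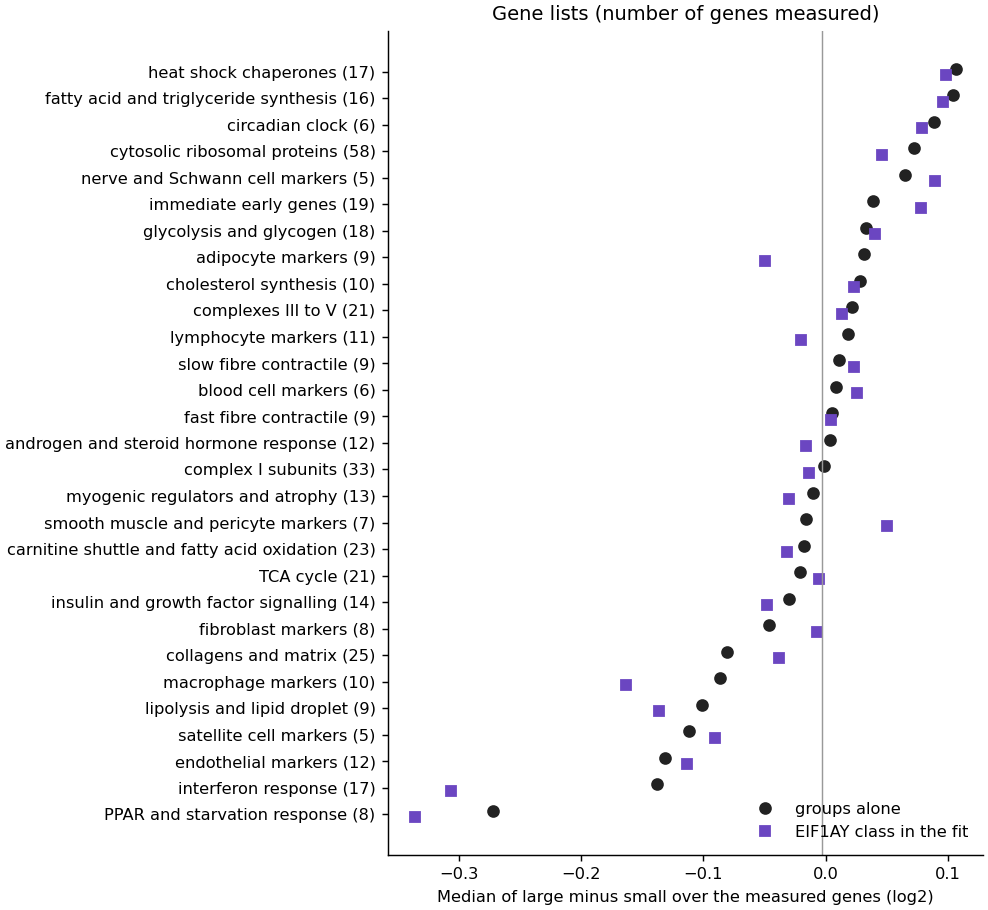
Median large minus small difference (log2, horizontal axis) of the measured genes of each list, with the number of genes in brackets, from the groups alone (circles) and with the EIF1AY class in the fit (squares); the vertical line marks the median of all 6765 genes. The fasting response (-0.27) and heat shock (0.11) lists stand at the ends, and adipocyte markers sit at 0.031.

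The middle group was set beside the ends to describe the shape of the relation. Its mean fat area of 14.7 cm2 lay nearer to the small group's 10.5 than to the large group's 20.7 cm2. A straight relation would not place it at the mean of the ends, so the contrast below is no test of a straight line. The called and named probe sets were chosen for their difference between the ends, which makes a middle mean in between likely from the start. The share over the array was not counted. The share of animals above the EIF1AY gap also ran from 27.3% through 50% to 91.7% over the groups. For all 11 called probe sets the mean of the middle group lay between those of the ends, as it did for 12 of the 12 higher and 10 of the 12 lower named probe sets. Across the array 0 probe sets passed when the middle group was set against the mean of the ends (limma), and 1501 (6.27%) had an unadjusted p under 0.05. The 2 exceptions were SP140 and LXN, for which the middle mean stood at or below the large group. SP140 ran from 5.98 through 6.23 to 7.45, from 5.56 through 6.0 to 6.34 and from 5.62 through 6.05 to 6.76 in the small, middle and large groups, and its middle group was -0.21 from the mean of the ends (adjusted p = 0.561). LXN ran from 5.79 through 6.67 to 8.42, from 5.30 through 6.21 to 7.21 and from 5.54 through 6.21 to 6.90. In both genes the small group held the highest values. For LXN these were in animals below the EIF1AY gap, where the small group had a mean of 6.94 ± 0.65 (SD, n = 16) against 6.29 ± 0.35 (SD, n = 6) above it. Setting the middle against either end alone gave 0 calls each (limma), with 2008 probe sets (8.39%) at an unadjusted p under 0.05 against the small group and 1188 (4.96%) against the large group.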

How the data were processed

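The authors deposited 1 table of normalized probe set values for the 207 arrays, read as log2 from its range; the submitters' processing notes name GCOS 1.1.1 and PLIER, with further settings not given in the sources used here. Probe sets were named through the platform's annotation, which can be old, and placed on chromosomes through RefSeq's gene table. Groups followed the fat area of each animal's labels. The 23935 non-control probe sets were fitted with limma 3.58.1 in R 4.3.3 (lmFit, eBayes) over 88 arrays of the small, middle and large groups, adjusted by Benjamini-Hochberg at 0.05, two-sided. Where a gene had several probe sets, lists used the brightest. The groups, the 30 gene lists and the tests were chosen with earlier results of these data known; named genes were the 12 largest moderated t each way among single-gene autosomal probe sets with a mean above 6.10, the called probe sets, 2 per list and a set of genes of fat, muscle and the sex chromosomes. The EIF1AY class was added after the data were seen, because a planned component of EIF1AY and SRY mixed both. Labels name no litter or culture, so each animal is 1 replicate; precision rests on how many animals a group holds. On simulated data with 50 changed probe sets per size among 23935, 0% of changes of 0.1, 18% of 0.2, 96% of 0.4 and 100% of 0.8 log2 units were recovered, with 4 false calls. Whether these shares hold for the measured arrays was not tested. There, differences of 0.42 for UBE2E3, -0.45 for TBC1D1 and -0.53 for LXN did not pass, while 0.35 for NIT1 did.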

Additional observations from a re-analysis of the deposited data

How the results depend on the processing

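The comparison of large with small fat area called 11 probe sets. The count was 29 in a regression over all animals with a fat area, 29 with wider limits of 12 and 18.5 cm2, 0 with narrower limits of 10.6 and 20 cm2 (10 and 11 animals, 1259 with an unadjusted p under 0.05), 6 among the brighter probe sets alone, 23 with blocks of title numbers (9 of them among the 11), 34 with the first 5 principal components, and 0 with the component of EIF1AY and SRY (1489 unadjusted). Settings chosen after seeing the data gave 0 with the EIF1AY class, 0 above its gap (1049 unadjusted) and 3 below it, where 2 animals form the large group and none of the 11 was called. The other 12 settings gave 9 to 15. NIT1 stayed positive in all 22, with adjusted p from 4.13e-04 to 0.9997; besides the settings above that made no call it lost its call with the blocks, below the gap and in the lower series of title numbers (0.0516). Ssc.2217.2.S1_at lost its call in the same settings and with all animals in 4 groups (0.0599), and Ssc.4921.1.S1_a_at kept its call with the blocks (0.0346). Leaving out the animals with the lowest and highest fat area gave 13. The middle group against the ends gave 1 call with all animals in 4 groups in place of 0. Among the gene lists 1 member was called, EIF1AY, and 0 with the class. Called probe sets that changed sign were Ssc.13426.1.A1_at (0.16 above and 0.018 below the gap), Ssc.16426.1.S1_at (-0.023 with the class, -0.15 below), Ssc.2434.1.A1_at (0.030 above), Ssc.4897.1.A1_at (0.035 above), and, below the gap, Ssc.31029.1.A1_at (0.098), Ssc.6667.1.A1_at (0.0075) and Ssc.7473.1.A1_at (-0.023). The cause was not tested. The 24 named autosomal probe sets kept their sign in every setting except below the gap, where 22 did. They were chosen for their difference in largely the same animals, which makes a kept sign likely from the start. How often signs were kept over the array was not counted. No paired analysis was possible because replicate numbers only name animals and pair none across the groups. For 59 named or called probe sets followed through the settings, 52 calls were lost with the sign kept. A further 9, the sign changes listed above, were lost with a change of sign. In these 59, 20 calls were gained, and 44 differences that passed in neither fit changed sign. Signals at the floor of 4 (1.43% of values) have no order.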
